A study of Mus musculus with 8 samples.

Results

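The mRNA levels of 8 MAP kinase phosphatase genes (*Dusp1*, *Dusp2*, *Dusp4*, *Dusp5*, *Dusp6*, *Dusp7*, *Dusp10* and *Dusp16*) and 2 Sprouty genes (*Spry1* and *Spry2*) were examined in brown adipose tissue (BAT) of mice after a single intravenous injection of the periodontal bacterium *Porphyromonas gingivalis*. The genes were chosen by name, and every probe that the array assigns to them was taken, which gave 15 of the 56605 probes and 10 of the 37074 gene names on the array. The control (Co) group held 4 mice injected with saline and the Pg group held 4 mice injected with sonicated *P. gingivalis* in 100 μL of saline. All were male C57BL/6J mice, 12 weeks old, with no genetic modification, and interscapular BAT was taken 18 h after the injection. Expression was measured on 8 one-color Agilent arrays, 1 for each sample, and is given as the log2 of the quantile-normalized intensity of a probe. Because probes bind with different strengths, the level of one probe is not set against that of another.

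MAP kinases (ERK, JNK and p38) carry signals from growth factor, cytokine and endotoxin receptors to the nucleus, and they are active only while both a threonine and a tyrosine in their activation loop carry phosphate. Dual-specificity phosphatases of the MAP kinase phosphatase class remove both phosphates, and Sprouty proteins restrain the cascade further up, between receptor tyrosine kinases and RAF. Many of these genes are themselves switched on by the kinases they restrain, so that their transcripts are widely read as a record of recent pathway activity, and in brown adipocytes p38 lies between adrenergic stimulation and the thermogenic genes.

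The number of probes that an array detected well above background was 34760 to 35831 in Co mice and 31132 to 34063 in Pg mice, with no overlap. The SD of the negative control spots, which bears on that limit, was 2.30 to 2.44 intensity units in Co and 2.53 to 3.23 in Pg mice, and did not overlap either. All 8 arrays lay on 1 slide, with the Co samples in one row and the Pg samples in the other, so slide row and group cannot be told apart. The defining marker *Ucp1*, the uncoupling protein of brown fat, and *Elovl3* were detected well above background on none of the arrays. Each had 1 probe, and a probe that fails was not told apart from an absent transcript. *Cidea*, a lipid droplet protein of brown adipocytes, was at 13.44 ± 0.09 in Co mice and 13.34 ± 0.17 in Pg mice (mean ± SD, n = 4 each, log2 intensity). By quantitative PCR the study reported *Ucp1* and *Cidea* both lower in BAT of Pg mice. All 12 skeletal muscle markers were well above background on every array, among them *Acta1*, skeletal α-actin, at 18.54 ± 0.03 and 18.51 ± 0.07. *Myh4*, a fast-fiber myosin heavy chain, was at 15.73 ± 1.61 and 14.96 ± 2.70, and *Adipoq*, adiponectin, at 10.29 ± 0.73 and 10.29 ± 0.56. The log2 summed intensity of the muscle list was 21.50 to 21.60 in Co and 21.48 to 21.59 in Pg mice, that of the adipocyte list (10 of 10 markers above background) 17.34 to 17.43 and 17.24 to 17.54, and that of the brown adipocyte list (8 of 10) 18.84 to 18.99 and 18.97 to 19.10. Nearly all of the brown adipocyte sum came from *Cox7a1* (means 17.75 and 17.91) and *Cox8b* (17.94 and 18.05), oxidase subunits that skeletal muscle also expresses, and nearly all of the adipocyte sum from *Fabp4* (16.28 and 16.35) and *Pnpla2* (16.20 and 16.10). The muscle sum was carried by the brightest probes of the arrays, such as *Tnnt3* at 18.84 and *Tnni2* at 18.81 on 7 of 8 arrays each, which hold the top ranks of the quantile normalization and so could show no difference. The macrophage list (8 of 8) summed to 15.06 to 15.28 in Co and 15.01 to 15.67 in Pg, and the neutrophil list (5 of 8 on every array, *Ngp* on none) to 10.43 to 10.49 and 10.21 to 11.70. The median log2 difference was 0.36 in the macrophage list, whose brightest members were *Itgam* (14.63 and 14.58) and *Lyz2* (12.81 and 13.41), and 0.16 in the neutrophil list, and 0 genes of either passed the test. Among the neutrophil genes *S100a8* and *S100a9* differed by 2.16 and 2.04 (adjusted p = 0.132 and 0.195), with Pg array 3 inside the Co range for both, and the other 4 tested lay between −0.03 and 0.22. The T and B cell list (5 of 8) summed to 10.76 to 10.87 and 10.84 to 11.02, and the red blood cell list (4 of 6) to 18.07 to 18.80 and 16.92 to 18.86. By limma, 3 markers of all these lists and the endothelial list had an adjusted p under 0.1: the muscle calcium pump *Atp2a1* was lower in Pg mice (log2 difference −0.44, adjusted p = 0.0411), the B cell receptor subunit *Cd79b* was higher (1.69, adjusted p = 0.0867), and so was the endothelial *Kdr*, described with the receptors below. *Cox7a1*, *Cox8b*, *Fabp4*, *Pnpla2*, *Tnnt3*, *Tnni2*, *Atp2a1*, *Cd79b*, *Itgam*, *Lyz2*, *S100a8* and *S100a9* were named after their values were seen. The part that these cell mixtures have in the values below was not tested, and in whole tissue fewer cells of a type and less RNA per cell cannot be told apart.

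None of the phosphatase or Sprouty genes differed between Co and Pg mice at the study's threshold for differentially expressed genes (DEGs), a false discovery rate q under 0.1 with a fold change above 1.5. Of the 15 probes, 14 were well above background on all 8 arrays and were tested, and 1 of the 2 *Dusp5* probes was detected on none. By limma, 0 of the 14 probes had q under 0.1, against 1.82% of all 33819 probes tested that had q under 0.1 and were higher in Pg mice and 6.00% that were lower. With the fold change added, 0.313% of all probes were DEGs higher in Pg mice and 1.30% were DEGs lower in Pg mice. Unadjusted p was under 0.05 for 2 of the 14 probes (*Dusp6* and 1 of 3 *Dusp16* probes), against 22.8% of all probes. The values of both groups were fully separated for 1 of the 14, a *Dusp16* probe that was lower in Pg mice, while 11.0% of all probes were separated in that direction and 4.83% in the other.

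In Pg mice 8 of the 14 probes had the higher mean and 6 the lower, with a median log2 difference (Pg minus Co) of 0.06 and a range from −0.22 to 0.62, beside a median of −0.04 over all probes tested. For 10 of the 14 probes the 95% interval of the difference lay wholly within 1.5-fold in either direction, as it did for 23706 of all 33819 probes tested. The exceptions were *Dusp1*, 1 probe of *Dusp4*, *Dusp5* and *Dusp6*, whose intervals reached past 1.5-fold on the higher side, so that a rise of DEG size remained within the error of 4 arrays a group. No array carried the extreme values throughout. Array Pg1 was the highest for 5 of the 14 probes and Pg4 for 3, while Co1 and Pg2 were each the lowest for 3.

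**Figure D1:**
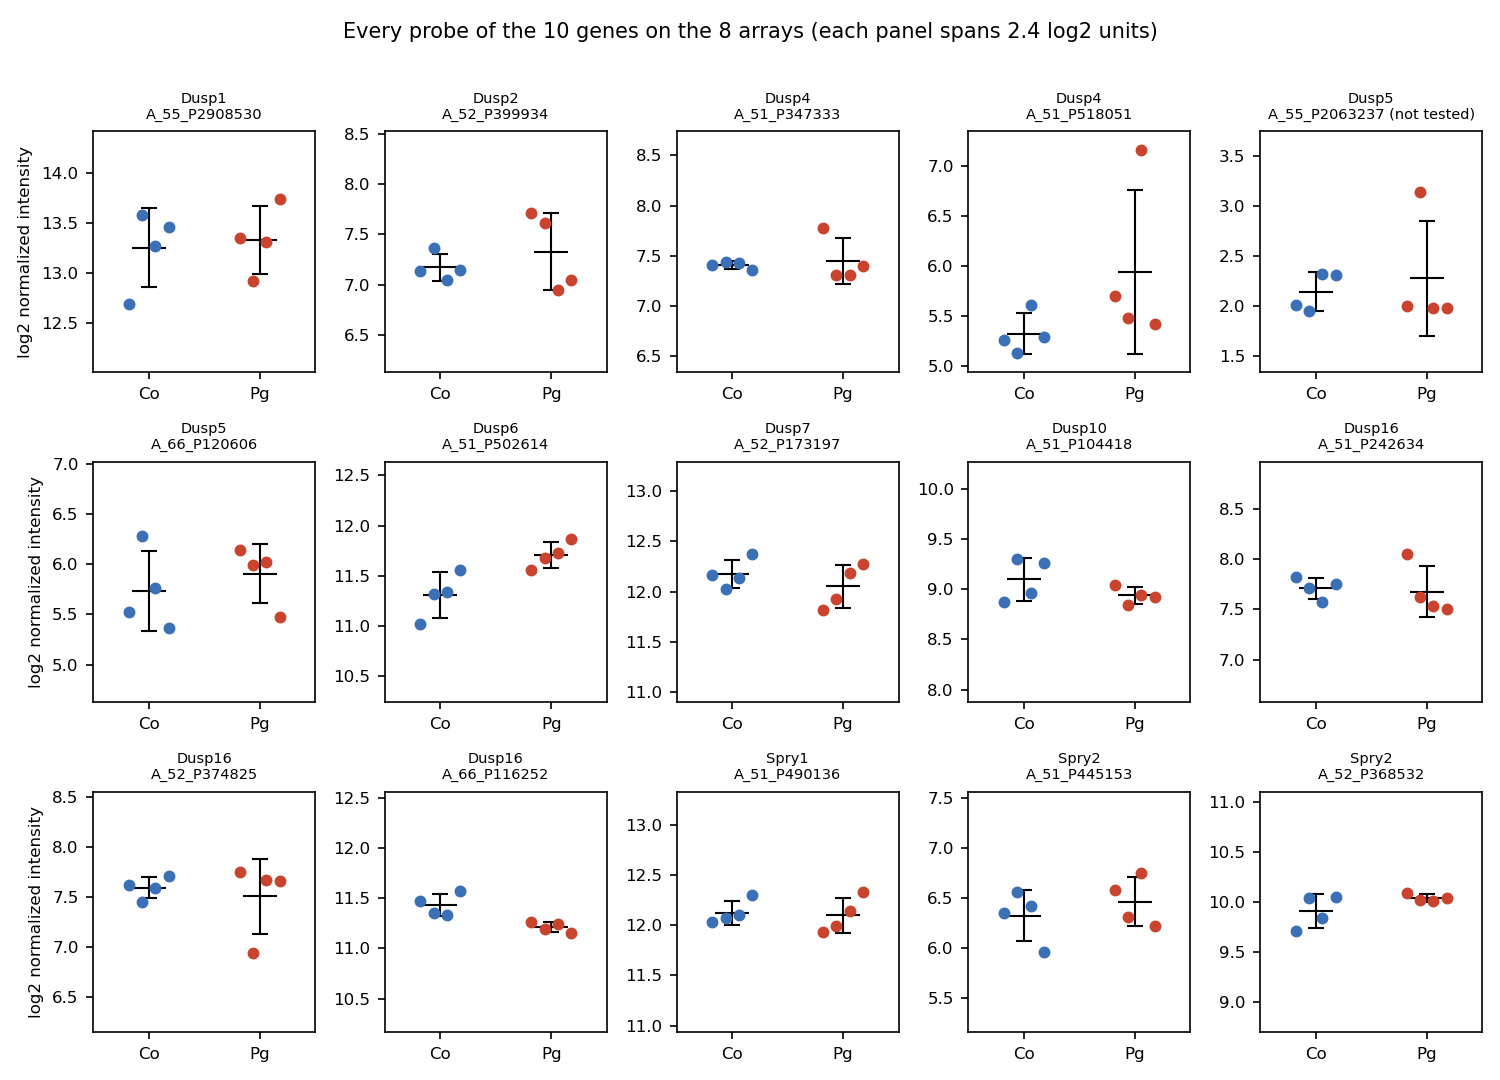
Each panel plots the log2 normalized intensity of 1 probe on the 4 Co arrays (blue) and the 4 Pg arrays (red, in replicate order from left to right), with the group mean and SD in black and the same vertical span in every panel. The groups are separated for *Dusp16* A_66_P116252, nearly so for *Dusp6*, and overlap for the other probes, and 1 Pg array stands apart for *Dusp4* A_51_P518051.

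**Figure D2:**
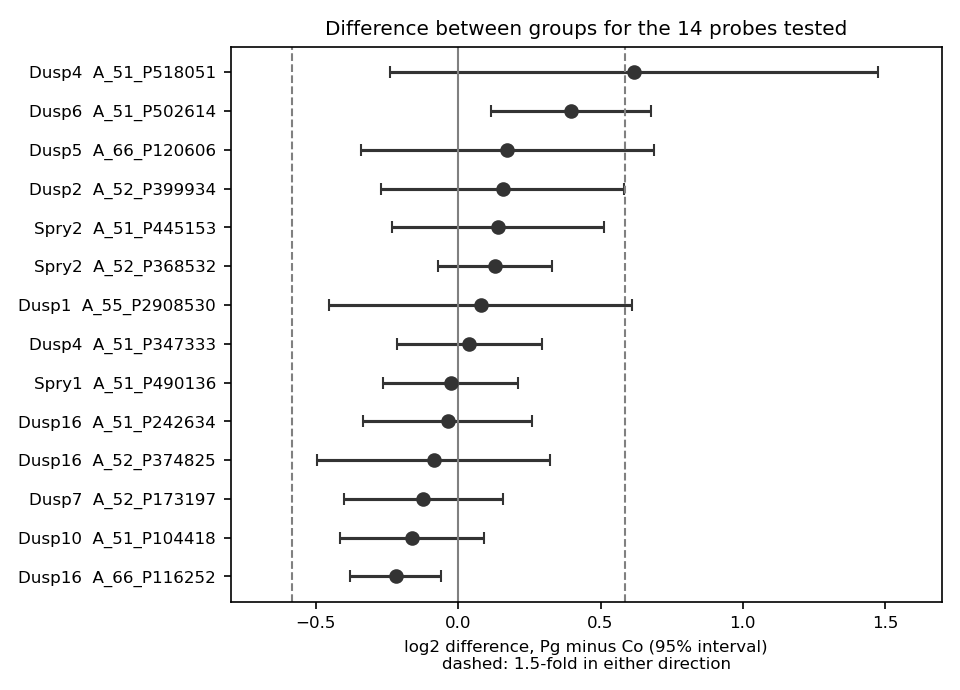
Points give the log2 difference, Pg minus Co, of each of the 14 probes tested, and bars its 95% interval from limma, ordered by size. Only the intervals of *Dusp6* and *Dusp16* A_66_P116252 leave out 0, and 4 intervals cross the dashed line at 1.5-fold on the right.

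Of the phosphatases that act on ERK in the cytoplasm, *Dusp6* showed the largest difference among the 10 genes when each was represented by its brightest probe. *Dusp6* encodes the ERK-specific phosphatase whose own transcription is driven by ERK signaling downstream of growth factor receptors. Its single probe (A_51_P502614) lies on the plus strand at chr10:98729985-98730044 of the mouse build mm9. Its first 30 bases are shown in lower case as the identity of the feature measured:
*Dusp6* A_51_P502614: catttggtggatgcaacaggttgagaggaa
The log2 intensity was 11.01, 11.32, 11.34 and 11.56 on Co arrays 1 to 4 and 11.55, 11.67, 11.72 and 11.86 on Pg arrays 1 to 4. Every Pg array was above Co arrays 1 to 3, and Co array 4 was only just above Pg array 1. The means were 11.31 ± 0.22 and 11.70 ± 0.13 (SD, n = 4 each). *Dusp6* was 1.32-fold higher in Pg mice (log2 difference 0.40, SE 0.12, 95% interval of the fold 1.08 to 1.60), with an adjusted p of 0.118 by limma, so it missed the threshold. An exact two-sided permutation test over the 8 arrays gave p = 0.0571, where the smallest p that 4 against 4 allows is 0.0286. Before any normalization between arrays the processed intensity was 2149 to 2996 in Co and 3188 to 3619 in Pg mice, and the groups did not overlap. The share of all probes separated on that scale was not counted. The fit without normalization gave *Dusp6* a limma adjusted p of 0.193.

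*Dusp7*, another cytoplasmic ERK phosphatase, had the lower mean in Pg mice. Its probe (A_52_P173197, chr9:106277697-106277756, mm9, plus strand) read 12.17, 12.03, 12.13 and 12.37 in Co mice and 11.82, 11.93, 12.18 and 12.28 in Pg mice. The 2 groups lay over each other, with Pg arrays 1 and 2 lowest of the 8. The log2 difference was −0.12 (95% interval −0.40 to 0.16, limma adjusted p = 0.584).

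*Dusp1*, *Dusp2*, *Dusp4* and *Dusp5* encode the inducible phosphatases of the nucleus. *Dusp1* is an immediate early gene of stress, endotoxin and glucocorticoid signaling and acts on p38 and JNK as well as ERK. Its probe (A_55_P2908530, chr17:26642624-26642683, mm9, minus strand) read 12.69, 13.58, 13.27 and 13.46 in Co mice and 13.35, 12.92, 13.31 and 13.74 in Pg mice. Co array 1 was the lowest and Pg array 4 the highest, and the other arrays of both groups were mixed. The log2 difference was 0.08 (SE 0.23, 95% interval −0.45 to 0.61, limma adjusted p = 0.864). Its spread within groups, an SD of 0.365, was larger than that of 85.9% of all probes tested, whose median SD was 0.155.

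*Dusp2*, best known from activated leukocytes, read 7.14, 7.36, 7.04 and 7.15 in Co mice and 7.71, 7.61, 6.95 and 7.05 in Pg mice (A_52_P399934, chr2:127163930-127163989, mm9, plus strand). Pg arrays 1 and 2 were above every Co array, whereas Pg array 3 was below every Co array. The log2 difference was 0.16 (95% interval −0.27 to 0.58, limma adjusted p = 0.648). *Dusp5*, an ERK-specific phosphatase of the nucleus, was read by A_66_P120606 (chr19:53616779-53616838, mm9, plus strand) at 5.52, 6.28, 5.77 and 5.37 in Co mice and 6.14, 5.99, 6.02 and 5.47 in Pg mice. The highest and the lowest array were both Co arrays, and the log2 difference was 0.17 (95% interval −0.34 to 0.69, limma adjusted p = 0.679). A second *Dusp5* probe (A_55_P2063237), 1037 bases upstream of it, was detected well above background on no array and gives no level for the gene.

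*Dusp4*, a nuclear phosphatase of ERK, JNK and p38 that growth factors induce, was read by 2 probes, 1 of which had the widest within-group spread of the 14. They lie 2701 bases apart on the plus strand of chromosome 8, A_51_P518051 at chr8:35882045-35882104 and A_51_P347333 at chr8:35884806-35884865 (mm9). Their first 30 bases are given because only 1 of the 2 features holds the single high Pg reading:
*Dusp4* A_51_P518051: aataacggcggtttccgctgccagagaaga
*Dusp4* A_51_P347333: tcaagggacttcagtaagataacaatgcaa
A_51_P347333 read 7.41, 7.44, 7.43 and 7.35 in Co mice and 7.78, 7.30, 7.30 and 7.40 in Pg mice. Only Pg array 1 stood above the Co arrays, and the log2 difference was 0.04 (95% interval −0.21 to 0.29, limma adjusted p = 0.857). A_51_P518051 read 5.26, 5.13, 5.61 and 5.29 in Co mice and 5.70, 5.49, 7.16 and 5.43 in Pg mice. Its difference, 0.62 (SE 0.37, 95% interval −0.24 to 1.48, limma adjusted p = 0.360), was the largest of the 14 probes and came with the widest interval, and it rested on Pg array 3. Without that array it was 0.21. With all arrays it was 0.32 with normexp background correction, 0.32 with the median signal and 0.36 with the authors' normalized values. *Dusp6* was larger under these settings, at 0.38, 0.40 and 0.40. On Pg array 3 the pixels of the spot had an SD of 82.0 intensity units around a mean of 199 and a median of 168, against pixel SDs of 16.8 to 23.4 and means of 78.9 to 118 on the other 7 arrays. The scanner software had marked the spot neither as non-uniform nor as a population outlier. The part of the pixel spread in the reading was not tested.

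*Dusp10* and *Dusp16* encode phosphatases that prefer JNK and p38 to ERK. *Dusp10* (A_51_P104418, chr1:185898608-185898667, mm9, plus strand) read 8.88, 9.31, 8.96 and 9.26 in Co mice and 9.04, 8.84, 8.95 and 8.93 in Pg mice. The Pg arrays lay close together, inside or just below the lower part of the Co range. The log2 difference was −0.16 (95% interval −0.42 to 0.09, limma adjusted p = 0.418).

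*Dusp16* was read by 3 probes, 1 of which had the smallest within-group spread of the 14. They all lie on the minus strand of chromosome 6 (mm9): A_66_P116252 at chr6:134665783-134665842, A_51_P242634 86 bases away at chr6:134665656-134665696, for which the file gives coordinates of 41 of the 60 probe bases, and A_52_P374825 at chr6:134687549-134687608, 21706 bases from A_66_P116252 and 21852 from A_51_P242634. The start of each is shown because 1 of the 3 separated the groups and the others did not:
*Dusp16* A_66_P116252: ctgtcagtccttcgtcactaatgtcgtatc
*Dusp16* A_51_P242634: gtacaaaatggtgattttgagcaaaactag
*Dusp16* A_52_P374825: ggctcttagccagaataatgacttaagttt
A_66_P116252 read 11.47, 11.35, 11.33 and 11.57 in Co mice and 11.26, 11.19, 11.24 and 11.15 in Pg mice. Every Pg array was below every Co array, and the within-group SD of 0.085 was smaller than that of most probes tested, 20.2% of which had a smaller one. The log2 difference was −0.22 (SE 0.07, 95% interval −0.38 to −0.06), a fold of 0.859, with a limma adjusted p of 0.124 and an exact two-sided permutation p of 0.0286, the smallest that the design allows. It therefore missed the threshold, and the share of separated probes given above is the measure to read it against.

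The neighboring probe A_51_P242634 read 7.82, 7.71, 7.57 and 7.75 in Co mice and 8.05, 7.62, 7.53 and 7.50 in Pg mice. Pg array 1 was above all Co arrays, Pg array 2 was within them, and Pg arrays 3 and 4 were below them. Its log2 difference was −0.04 (95% interval −0.33 to 0.26, limma adjusted p = 0.889). The distant probe A_52_P374825 read 7.61, 7.45, 7.59 and 7.71 in Co mice and 7.75, 6.95, 7.66 and 7.66 in Pg mice, where Pg array 2 alone was low and the other 3 lay in or just above the Co range. The log2 difference was −0.09 (95% interval −0.50 to 0.32, limma adjusted p = 0.803). The intervals of both hold the value of A_66_P116252, and whether the probes differ from each other was not tested.

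The Sprouty genes, whose products block RAS and RAF activation below receptor tyrosine kinases, differed little between the groups. *Spry1* (A_51_P490136, chr3:37543194-37543253, mm9, plus strand) read 12.03, 12.07, 12.10 and 12.30 in Co mice and 11.94, 12.00, 12.14 and 12.33 in Pg mice. The 2 sets of arrays covered nearly the same range, and the log2 difference was −0.03 (95% interval −0.26 to 0.21, limma adjusted p = 0.901). *Spry2* was read by A_52_P368532 at 9.71, 10.05, 9.84 and 10.05 in Co mice and 10.09, 10.02, 10.01 and 10.04 in Pg mice, with the Pg arrays packed at the upper end of the Co range. The difference was 0.13 (95% interval −0.07 to 0.33, limma adjusted p = 0.412). A second *Spry2* probe, A_51_P445153, which lies 456 bases away on the same strand of chromosome 14, read 6.35, 6.56, 6.42 and 5.97 in Co mice and 6.58, 6.31, 6.76 and 6.22 in Pg mice. It gave a difference of 0.14 (95% interval −0.23 to 0.51, limma adjusted p = 0.639), and both *Spry2* probes had their higher mean in Pg mice.

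The adjusted p of *Dusp6* and of *Dusp16* A_66_P116252 lay close enough to 0.1 to depend on how the intensities were treated. *Dusp6* had q under 0.1 with the median signal without background subtraction (adjusted p = 0.0848), with normexp background correction (0.0939) and when only probes above background on all 8 arrays were tested (0.0972). *Dusp16* A_66_P116252 had q under 0.1 with normexp (0.0770) and with the median signal (0.0917). The counts over all probes under these settings are given at the end. The direction of neither changed in any of the 16 alternatives. With single arrays left out, *Dusp6* ranged from 0.30 to 0.48 with adjusted p from 0.110 to 0.215, and the *Dusp16* probe from −0.25 to −0.17 with adjusted p from 0.155 to 0.225. No member probe was a DEG under any of the alternatives.

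**Figure D3:**
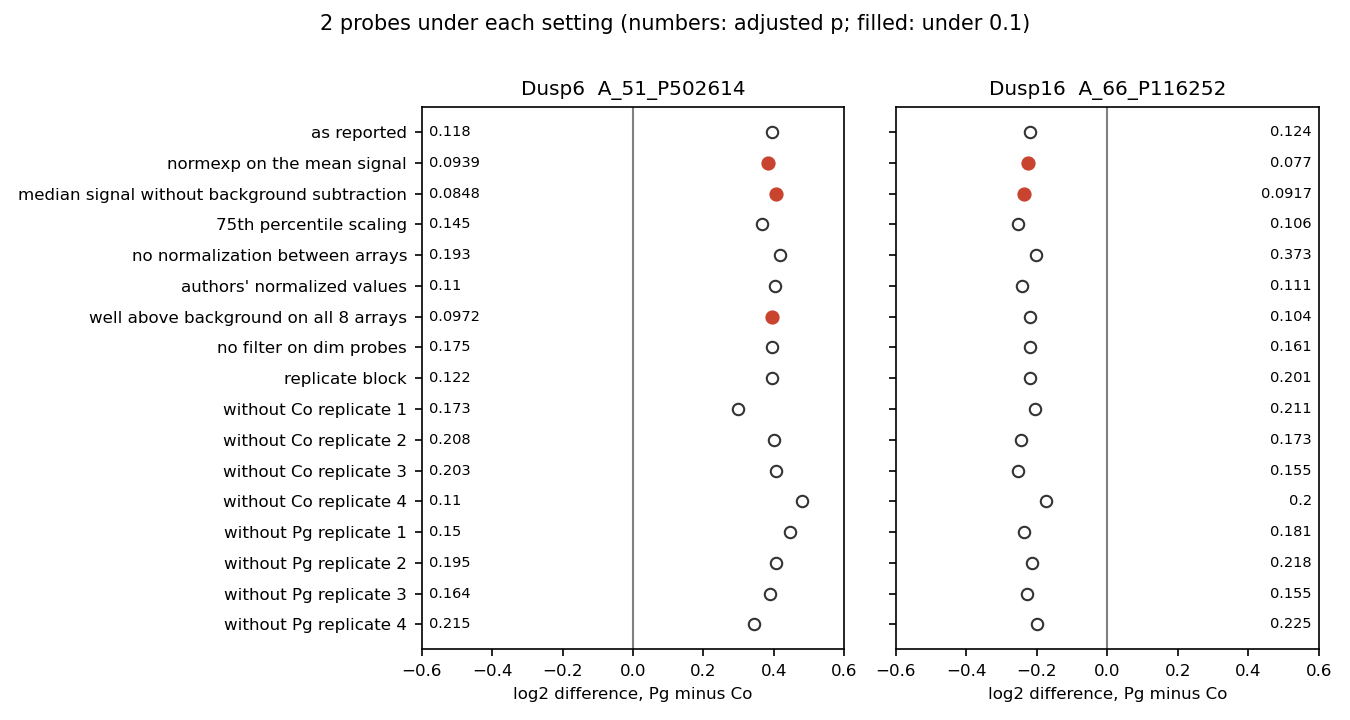
The log2 difference, Pg minus Co, of *Dusp6* (left) and of *Dusp16* A_66_P116252 (right) is plotted for the processing used here (labelled as reported) and each of the 16 alternatives. The limma adjusted p is printed beside it, and points are filled where it is under 0.1. *Dusp6* stays between 0.30 and 0.48 and the *Dusp16* probe between −0.25 and −0.17, and 3 and 2 points are filled.

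Promoter windows of 9 of the 10 genes, from 250 bases before to 50 after the start, came from RefSeq (GRCm38.p6), with *Dusp4* left out. They were searched on both strands for letters that signal-responsive factors of these pathways bind, and a match describes the letters and shows no binding. The full cyclic AMP response element, TGACGTCA, was found in the *Dusp1* window alone, against 1.79% of 32851 windows. Its core TGACG, which the full element contains, was in 4 of the 9 (*Dusp1*, *Dusp2*, *Dusp5* and *Dusp16*), against 20.8%, and the E-box CACGTG was in *Dusp1* and *Dusp2*, against 7.15%. A CArG box, the core of the serum response element, was found in *Dusp5* alone, against 1.63% of windows. The GC box GGGCGG was in 7 of the 9, against 35.7%. No member window held the AP-1 letters TGANTCA (7.81% of all windows), the ETS letters CCGGAAGT (3.89%), an NF-kappa-B site (5.8%) or a glucocorticoid receptor element (0.222%).

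The 60-base stretches around the cyclic AMP and serum response letters are shown in the direction of transcription, from 160 to 101 bases before the start of *Dusp1* (chr17:26508573-26508632, GRCm38.p6, minus strand) and from 100 to 41 bases before that of *Dusp5* (chr19:53529045-53529104, plus strand). Capitals mark the cyclic AMP response element and the E-box in *Dusp1* and the CArG boxes, which adjoin each other, in *Dusp5*:
*Dusp1* promoter: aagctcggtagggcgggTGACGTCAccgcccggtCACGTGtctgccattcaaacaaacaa
*Dusp5* promoter: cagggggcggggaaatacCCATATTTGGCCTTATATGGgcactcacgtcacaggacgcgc
The log2 differences of *Dusp1* and *Dusp5* at 18 h were 0.08 and 0.17, both with intervals that contain 0.

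The genes around the phosphatases in the same pathways were taken from 7 lists of 109 genes, of which 100 were tested, each by its brightest probe. By limma, 8 of the 100 had q under 0.1, 5 higher and 3 lower in Pg mice, and 0 were DEGs. Of all 22454 genes tested the same way, 2.06% had q under 0.1 and were higher and 4.19% were lower. These 8 genes did not include a single ligand or a member of the RAS-ERK cascade proper.

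Upstream, 11 of 15 growth factor ligands were tested, with 6 higher, 5 lower and a median log2 difference of 0.04. The smallest p belonged to *Pdgfb*, a platelet-derived growth factor chain, at 11.33 ± 0.06 in Co and 11.52 ± 0.10 in Pg mice (adjusted p = 0.155). Of the 14 receptor tyrosine kinases, 9 were higher (median 0.06), and *Kdr*, the main VEGF receptor of endothelial cells, rose from 11.40 ± 0.16 to 11.97 ± 0.17 (log2 difference 0.57, adjusted p = 0.0573). *Kdr* is also 1 of the 8 endothelial markers, all of which were above background on every array, and their log2 summed intensity was 13.67 to 14.06 in Co and 13.95 to 14.11 in Pg mice. Of the 8 markers, 5 had the higher mean in Pg mice (*Kdr*, *Cldn5* at 0.41, *Vwf* at 0.30, *Cdh5* at 0.13 and *Emcn* at 0.10) and 3 the lower (*Pecam1* at −0.20, *Tek* and *Tie1* each at −0.14), with a median of 0.11. Only *Kdr* passed the test, and the others were named after their values were seen. The share of endothelial RNA in this difference was not tested.

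Within the cascades the medians lay slightly below 0. Of 18 RAS-ERK genes, 7 were higher and 11 lower (median −0.07), and the smallest p was that of *Rps6ka2*, a ribosomal S6 kinase that ERK activates, at −0.26 (adjusted p = 0.118). Of 18 p38 and JNK cascade genes, 7 were higher and 11 lower (median −0.08), and 3 passed the test, all of them kinases at the top of the cascade. *Map3k1* rose by 0.39 (adjusted p = 0.0559), although its other probe gave −0.04 (adjusted p = 0.905). *Map3k7*, the TAK1 kinase of endotoxin and interleukin signaling, rose by 0.23 (adjusted p = 0.0699), with its other probes at 0.02 and −0.27. *Map3k5*, the ASK1 kinase of stress signaling, had a difference of −0.29 (adjusted p = 0.0649), and its second probe, at −0.49 (adjusted p = 0.0398), was lower as well.

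Among the negative regulators outside the 10 genes, 15 other phosphatases had 6 higher and 9 lower values (median −0.01), and only *Dusp28*, an atypical family member, passed, at 11.58 ± 0.03 in Co and 11.31 ± 0.07 in Pg mice (log2 difference −0.27, adjusted p = 0.0596). Of 9 other feedback inhibitors of receptor signaling, 3 were higher and 6 lower (median −0.19). *Spred1*, a Sprouty-related inhibitor of RAS, rose by 0.28 (adjusted p = 0.0947, second probe 0.10), and *Lrig1*, which lowers the level of ErbB receptors, had a difference of −0.40 (adjusted p = 0.0579, second probe −0.51 with adjusted p = 0.0411).

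The transcripts that ERK signaling induces, other than the phosphatases, mostly had the higher mean in Pg mice. Of 15 tested, 14 had the higher mean in Pg mice, with a median log2 difference of 0.22, beside 10587 of the 22454 genes and a median of −0.01 overall. Only *Fosl2*, an AP-1 subunit, passed the test, rising by 0.42 (SE 0.08, adjusted p = 0.0553), while its dimmer probe gave −0.17 (adjusted p = 0.619). For *Junb*, *Etv1* and *Etv4*, named after their values were seen, another probe also had the opposite sign. With single arrays left out 13 or 14 of the 15 were higher and the median was 0.14 (without Co replicate 1) to 0.31. Under the other settings the median was 0.11 (the authors' normalized values) to 0.28 (no normalization between arrays), with 0.16 under normexp, and 13 of 14 or 14 of 15 were higher. Co array 1 was among the 2 lowest of the 8 arrays for 13 of the 15 transcripts and Co array 4 for 8, and the lowest array was Co array 1 for 6 and Co array 4 for 5. For *Fos*, named after its values were seen, the Co arrays read 9.36, 10.81, 10.50 and 9.51 and the Pg arrays 10.89, 10.63, 10.22 and 10.66. Without Co arrays 1 and 4 together, 9 of the 15 were higher and 6 lower, with a median of 0.08. This pair was left out after seeing that they were the lowest for these transcripts, so a smaller difference follows from the choice. The list was chosen with earlier results of these data known, so its counts are not independent of them. Its shift has no test here. For the 10 phosphatase and Sprouty genes read in the same way, by the brightest probe, 6 were higher and 4 lower with a median of 0.06.

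The pathway calls were not stable against the loss of an array. The number of pathway genes with q under 0.1 was 0 without Co replicate 2, 3 or 4 and without Pg replicate 4, 1 without Pg replicate 1, 2 without Pg replicate 2, 5 without Co replicate 1 and 6 without Pg replicate 3. Of the 8 genes, *Fosl2* had q under 0.1 in 4 of the 8 fits with 1 array left out, *Map3k1* and *Map3k5* in 2, *Kdr*, *Dusp28* and *Lrig1* in 1, and *Map3k7* and *Spred1* in 0, so some of these calls were other genes. The directions of the 8 genes held in each of these fits. The loss of calls was not limited to the pathway genes. Over all probes tested, 616 higher and 2028 lower had q under 0.1 with all arrays. These fell to 58 and 174 without Co replicate 2 and to 1 and 2 without Co replicate 3. They were 144 and 419 without Co replicate 4, and 164 and 636 without Pg replicate 4.

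**Figure D4:**
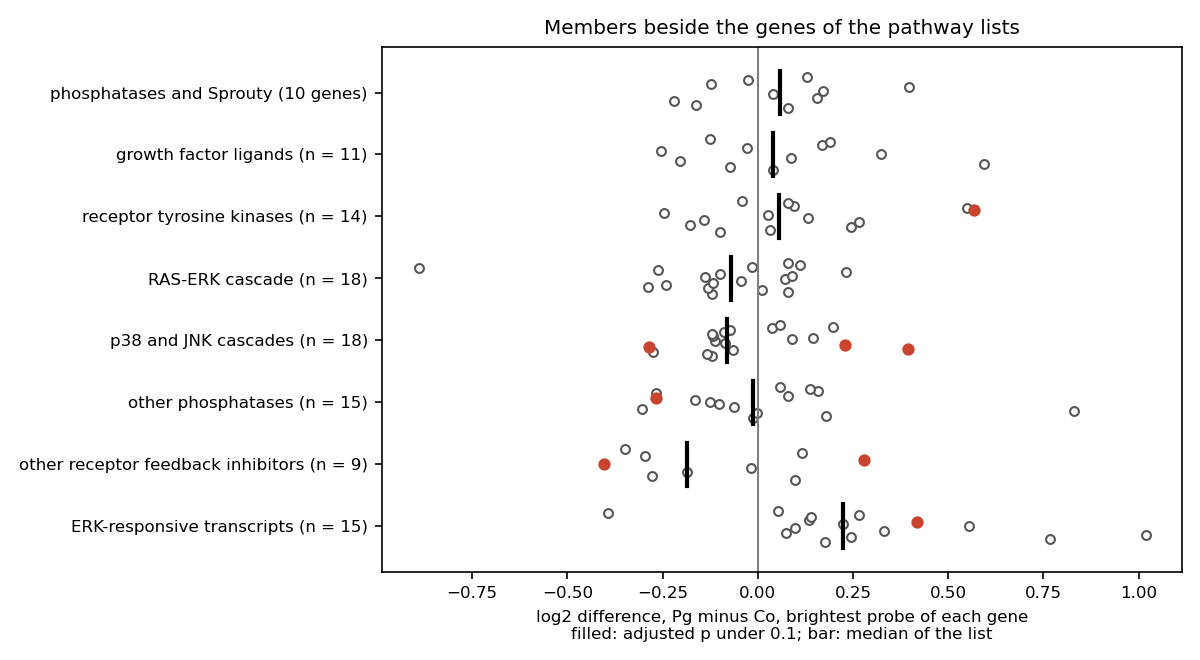
Each point is the log2 difference, Pg minus Co, of the brightest probe of a gene, with the 10 phosphatase and Sprouty genes in the top row and the genes tested of the 7 pathway lists below, filled where the adjusted p is under 0.1, and a black bar at the median of each row. The medians lie between −0.19 for the other feedback inhibitors and 0.22 for the ERK-responsive transcripts, and the top row has no filled point.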

How the data were processed

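The authors deposited the Feature Extraction 11.0.1.1 output of each array, with the processed (background-subtracted and detrended), mean, median and background intensity of every spot, not normalized between arrays. They also deposited a table of quantile-normalized log2 values, used as an alternative. Its columns of fold changes, statistics and p-values were not used. Of 59305 non-control spots, population outliers (90 to 150 an array) were left out. Processed intensities were averaged by probe, quantile-normalized, floored at 1 and log2-transformed, and the 33819 probes that 4 or more arrays detected well above background went into limma 3.58.1 in R 4.3.3 (lmFit, eBayes, two-sided, Benjamini-Hochberg over these probes). The quantile and log2 steps, limma and the DEG rule are the study's stated methods, whereas the averaging, floor and filter were chosen here. Symbols came from RefSeq by accession for 32994 probes and from the array otherwise. Nothing in the labels says that replicates came from separate RNA preparations, so p-values measure the spread between these samples, and 4 arrays a group limit the precision.

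Named genes were all 10 members with every probe, up to 3 genes with q under 0.1 in each pathway list or the smallest p where none passed, and 5 tissue markers with those on no array. Members and lists were chosen with earlier results of these data known. Alternatives were normexp on the mean signal (offset 50), the median signal, 75th percentile scaling, no normalization, the authors' values, 2 other filters, the replicate block and each array left out. Probe positions are in mm9 as the files give them. No mm9 annotation was used, so exon and UTR positions are not given. The labels print the dose as 108 CFU, a power of 10 that lost its superscript.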

Additional observations from a re-analysis of the deposited data

Results flagged for a closer look

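In each of 30 groups of 4 arrays (15 probes, Co and Pg) the highest and lowest array was compared with the others, and 3 groups held an array whose gap exceeded the 95% limit of Dixon's test, which chance passes in about 1 of 20 groups. *Dusp4* A_51_P518051 read 7.16 on Pg array 3, with the other Pg arrays between 5.43 and 5.70. *Dusp16* A_52_P374825 read 6.95 on Pg array 2, with the others between 7.66 and 7.75, and its pixel SD there, 35.2, was within the 32.4 to 49.9 of the other 7 arrays. *Dusp5* A_55_P2063237 read 3.14 on Pg array 2, with the others between 1.98 and 2.00, and no array detected this probe well above background.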

How the results depend on the processing

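For the member probes, 206 comparisons with an alternative kept their direction and their side of q = 0.1, whatever the fold change. In 5 q fell under 0.1 (*Dusp6* and *Dusp16* A_66_P116252, above), and 12 changed direction, none of them with q under 0.1. Member probes with q under 0.1 numbered 2 with normexp, 2 with the median signal and 1 among probes above background on all 8 arrays. With the processing used here they numbered 0. Of all 33819 probes tested, 1026 had q under 0.1 and were higher in Pg mice with normexp, and 2423 were lower. With the median signal 938 were higher and 2126 lower. Of the 29222 probes above background on all 8 arrays, 840 were higher and 2169 lower. *Dusp16* A_51_P242634 turned to 0.00195 with 75th percentile scaling and to 0.0521 without normalization, and A_52_P374825 to 0.0137 without normalization. With single arrays left out, *Dusp1* ranged from −0.107 to 0.216, *Dusp4* A_51_P347333 from −0.0711 to 0.0872, *Dusp16* A_51_P242634 from −0.161 to 0.0222, A_52_P374825 from −0.169 to 0.101 and *Spry1* from −0.102 to 0.0319. The other probes kept their direction but moved in size. *Dusp2* ranged from 0.029 to 0.284, *Dusp4* A_51_P518051 from 0.214 to 0.790 and *Dusp5* A_66_P120606 from 0.049 to 0.355. *Dusp7* ranged from −0.197 to −0.045 and *Dusp10* from −0.237 to −0.094. *Spry2* A_51_P445153 ranged from 0.021 to 0.222 and A_52_P368532 from 0.062 to 0.175. Under the other settings *Dusp5* A_66_P120606 was 0.025 to 0.350. *Spry2* A_51_P445153 has no value in the authors' table.

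DEGs among all probes numbered 546 as reported, 94 with normexp, 108 with the median signal, 283 with 75th percentile scaling, 27 without normalization, 106 with the authors' values, 318 among probes above background on all 8 arrays, and 3 (without Co replicate 3) to 697 (without Pg replicate 3) with single arrays left out. Without normalization 20 probes with q under 0.1 were higher and 9 lower, against 616 and 2028. Pathway genes with q under 0.1 numbered 8 with the processing used here, 0 without normalization and 0 to 6 with single arrays left out. With the replicate number as a block there were 0 DEGs and 0 pathway genes. Arrays of the same number did not deviate together (correlations 0.06, −0.03, −0.07 and 0.18, 2 of 4 closest to their own number), so the numbers do not pair the samples. The causes were not tested. The receptor tyrosine kinase, ligand and other phosphatase medians crossed 0 under some alternatives, the other lists' did not. Dim probes set the depth limit: *Dusp5* A_55_P2063237 has no measured level.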
